A study of Mus musculus with 4 samples.

Results

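Mitochondrial ribosomal protein genes were taken as all protein-coding genes whose symbol starts with Mrpl or Mrps followed by a digit. This gave 78 of the 50600 genes in the count tables and of the 21764 protein-coding genes, 49 of the large subunit series (Mrpl) and 29 of the small subunit series (Mrps). Of these 78 genes, 26 had at least 1 exonic base facing an exon annotated on the opposite DNA strand, a share of 33.3% against 22.0% of the other 21686 protein-coding genes. For each gene the count on its own strand was set beside the count of the gene or genes on the other strand, because the fragments had been assigned by strand.

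The mitochondrial ribosome translates the few membrane proteins of the respiratory chain that are encoded by mitochondrial DNA. All of its proteins are encoded in the nucleus, made in the cytosol and imported, and they join ribosomal RNA that is encoded in the mitochondrion. Activated T cells are known to expand their mitochondria as they grow and divide.

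The RNA came from T-helper 2 (Th2) cells, the CD4 T cells that secrete interleukins 4, 5 and 13, taken as primary cells from C57BL/6NJ mice. The 4 libraries formed a single group of biological replicates 1 to 4, with no other genotype, treatment or cell type in the labels and with age unknown and sex not collected. The labels gave each library its own biosample and all of them the same donor, so the spread behind the p-values is that of these samples and may be technical. The labels called the assay total RNA sequencing, whereas the title of the library protocol speaks of poly(A)-selected RNA, and the file headers carried a time of 72 h whose meaning the labels do not give.

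Replicates 1, 3 and 4 held 1713199 to 2388255 gene counts and replicate 2 held 5016, so the results rest on the 3 deep libraries unless stated otherwise. The floor of 3 counts corresponded to 1.26, 1.56 and 1.75 CPM (counts per 1000000) in replicates 1, 3 and 4 and to 598.1 CPM in replicate 2. Genes with opposite-strand exons, 8189 of the 50600 genes, held 90.7%, 94.2% and 91.3% of all counts in replicates 1, 3 and 4. Whether the strand setting of the counting matched the strand of the libraries was not tested. With the opposite setting, each fragment would be read as coming from the other strand. In shared exons it could then be assigned to the gene on that strand. In unshared exons, fragments counted here would go unassigned, and fragments left unassigned here could be counted. The counts of genes without opposite-strand exons, markers included, would then change as well. Every level and every direction between paired genes below therefore holds for the setting used. Counts under the other setting were not analysed here. Of the cell type markers, all 5 for T cells and all 5 for Th2 cells were above 1 TPM (transcripts per 1000000, counts per exonic length scaled to the same sum in each library). The 5 T cell markers together had 254, 78 and 207 counts and the 5 Th2 markers 406, 164 and 305. The 3 B cell and 2 natural killer cell markers had no count, the 3 myeloid markers together had 0, 0 and 1, and Cd8a and Cd8b1 together had 3, 0 and 2. In bulk RNA, fewer cells of a type and less RNA per cell cannot be told apart.

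In the pairs compared below, exons of a mitochondrial ribosomal protein gene and of a gene on the other strand cover some of the same bases. Counts were available per gene and not per stretch. The examples below are coding bases of 4 such genes on the gene's own strand, chosen after the values were seen, because the gene on the other strand had many more counts. Capitals mark the bases shared with an exon on the other strand, and lower case marks coding bases next to them. Coordinates are GRCm38 (mm10) and the sequence is that of the GENCODE vM21 transcripts. Mrps27 encodes a pentatricopeptide-repeat protein of the small subunit, and 3 stretches of its coding sequence lie inside exons of 6430562O15Rik.
Mrps27 opposite 6430562O15Rik, chr13:99409809-99409911 (+): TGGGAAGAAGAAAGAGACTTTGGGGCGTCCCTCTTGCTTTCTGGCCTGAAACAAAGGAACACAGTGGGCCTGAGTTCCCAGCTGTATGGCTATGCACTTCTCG
Mrps27 opposite 6430562O15Rik, chr13:99411278-99411420 (+): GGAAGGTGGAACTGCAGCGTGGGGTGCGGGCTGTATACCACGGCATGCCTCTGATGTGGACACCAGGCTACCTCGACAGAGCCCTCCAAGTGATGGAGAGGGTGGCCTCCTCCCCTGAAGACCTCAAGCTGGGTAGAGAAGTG
Mrps27 opposite 6430562O15Rik, chr13:99412195-99412365 (+): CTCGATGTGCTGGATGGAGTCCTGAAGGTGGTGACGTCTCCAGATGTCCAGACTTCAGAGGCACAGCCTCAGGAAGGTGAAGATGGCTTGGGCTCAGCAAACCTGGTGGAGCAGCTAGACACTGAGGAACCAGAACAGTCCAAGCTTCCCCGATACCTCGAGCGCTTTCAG
Mrpl12 encodes a protein of the stalk of the large subunit, which recruits translation factors, and shares coding bases with the long intergenic RNA gene Gm16755.
Mrpl12 opposite Gm16755, chr11:120488097-120488189 (+): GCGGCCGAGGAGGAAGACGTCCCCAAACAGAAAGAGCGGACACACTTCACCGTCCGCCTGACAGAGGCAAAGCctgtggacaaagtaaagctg
Mrpl9 is a large subunit gene that shares coding bases with Oaz3, an antizyme gene known from the testis. Mrpl18, a gene of the central protuberance of the large subunit, shares coding bases with Tcp1, a subunit gene of the cytosolic chaperonin.
Mrpl9 opposite Oaz3, chr3:94443659-94443815 (+): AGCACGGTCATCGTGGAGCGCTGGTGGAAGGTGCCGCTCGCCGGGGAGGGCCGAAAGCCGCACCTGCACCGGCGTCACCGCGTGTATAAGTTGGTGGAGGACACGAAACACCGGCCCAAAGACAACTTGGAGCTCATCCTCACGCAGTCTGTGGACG
Mrpl18 opposite Tcp1, chr17:12915681-12915824 (-): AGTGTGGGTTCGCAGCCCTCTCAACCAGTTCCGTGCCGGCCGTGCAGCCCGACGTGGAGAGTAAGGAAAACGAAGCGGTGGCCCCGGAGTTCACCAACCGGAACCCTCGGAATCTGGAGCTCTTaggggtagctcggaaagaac

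The 78 genes together held 0.416%, 0.432% and 0.412% of all gene counts in replicates 1, 3 and 4 (0.42% ± 0.0104, SD, n = 3). Wilson 95% intervals were 0.408% to 0.424%, 0.423% to 0.441% and 0.403% to 0.422%, and they cover counting error only. The 26 genes facing them on the other strand, leaving out genes of the series themselves, held 0.987%, 0.998% and 0.927% (0.971% ± 0.0385). In each of the 3 libraries the opposite-strand genes thus held more counts than all mitochondrial ribosomal protein genes together.

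The counts were concentrated in a few genes. Mrps25, Mrpl47 and Mrpl48 held 73.3%, 77.5% and 73.8% of the counts of all 78 genes in replicates 1, 3 and 4. With Mrpl46, Mrps7, Mrpl19 and Mrpl13, the 7 genes with 500 or more counts in all held 87.5%, 92.2% and 88.5%. All 7 had opposite-strand exons. The 52 genes without opposite-strand exons held 6.95%, 3.67% and 6.64%, with 690, 306 and 469 counts together.

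**Figure D1:**
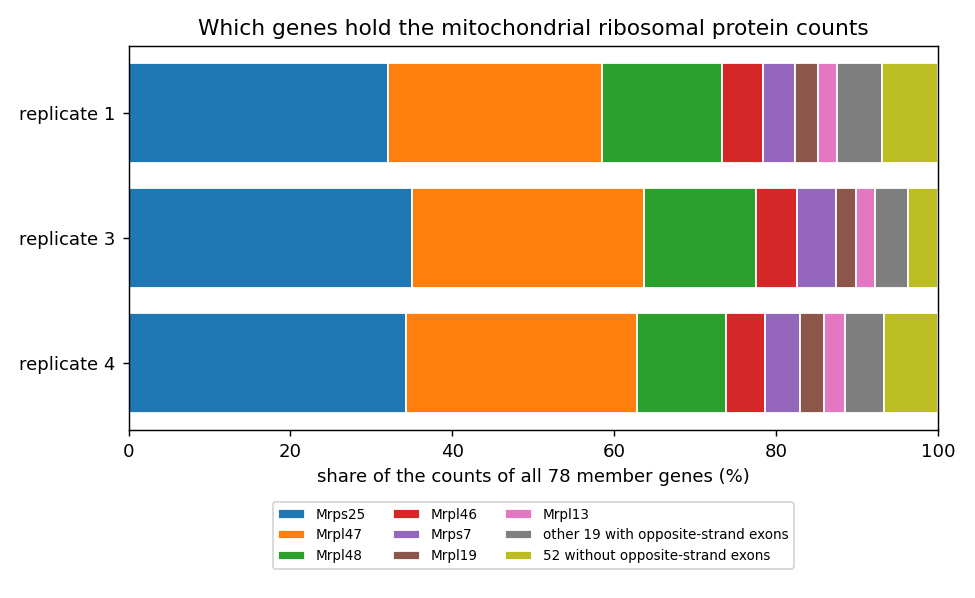
Share of the counts of all 78 mitochondrial ribosomal protein genes (x axis, %) held by the 7 genes with 500 or more counts, the other 19 genes with opposite-strand exons and the 52 genes without, in replicates 1, 3 and 4. Mrps25, Mrpl47 and Mrpl48 fill 73.3% to 77.5% of each bar and the 52 genes without opposite-strand exons fill 3.67% to 6.95%.

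Levels were compared per exonic length as TPM. The median of the 26 genes with opposite-strand exons was 10.02, 6.74 and 9.97 TPM in replicates 1, 3 and 4 (8.91 ± 1.88, SD, n = 3), beside 1.55 ± 0.41 over the other protein-coding genes of the same kind. The median of the 52 genes without was 2.91, 1.01 and 2.94 TPM (2.29 ± 1.11), beside 0 over the other 16911 protein-coding genes without opposite-strand exons. By series, the Mrpl genes had medians of 5.63, 1.90 and 5.84 TPM and the Mrps genes 2.27, 0.888 and 2.42 TPM. Within both classes and both series the median was lowest in replicate 3.

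Against a fixed level of 1 TPM, 40 of the 71 genes with 10 or more counts in all were above it, none was below and 31 were undecided (limma on log2(TPM + 0.1), adjusted p under 0.05 over all genes tested). The other 7 genes had fewer counts and were not tested. Over all 10670 genes tested, 57.2% were above and 2.45% below, so the share above in the series lay near that of all genes. At an unadjusted p under 0.05, 0 of the 71 were below 1 TPM. By class, 17 of 25 tested genes with opposite-strand exons were above 1 TPM, against 66.2% of all such protein-coding genes tested, and 23 of 46 without, against 38.1%. With a pseudocount of 1 TPM the count below was 2, and with replicate 2 included 8 genes were above and 1 below. Shares over all genes are not given for these settings, so the changes are not read as particular to the series.

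Under the strand setting used, the highest levels were listed for genes with opposite-strand exons. Mrpl47, a gene of the large subunit on the minus strand of chromosome 3 (32725397 to 32737605), had 2622, 2392 and 2019 counts in replicates 1, 3 and 4, or 355.2, 395.1 and 385.4 TPM (378.5 ± 20.8, SD, n = 3). Mrps25, a small subunit gene on the minus strand of chromosome 6 (92169525 to 92184033), had 3184, 2915 and 2422 counts, or 289.9, 323.5 and 310.7 TPM (308.0 ± 17.0). The ranges of these 2 genes did not overlap. Mrpl46, a large subunit gene on chromosome 7 (78775236 to 78783531, minus strand), followed with 212.0, 219.7 and 203.9 TPM (211.9 ± 7.93). Mrps7, a gene of the head of the small subunit on chromosome 11 (115603925 to 115608036, plus strand), had 114.7, 139.8 and 125.8 TPM (126.8 ± 12.6). Mrpl48, of the central protuberance, had 107.7, 103.2 and 79.8 TPM (96.9 ± 15.01) on chromosome 7 (100545751 to 100608301, minus strand). The values of Mrpl46 lay above those of Mrps7 in every library, and those of Mrps7 lay above those of Mrpl48. Mrpl24 came next at 40.1, 39.5 and 34.8 TPM (38.1 ± 2.90), with Mrpl21 and Mrpl19 at 33.2 ± 2.99 and 30.2 ± 2.57 TPM. Ranges over the libraries overlapped between Mrpl24 and Mrpl21 and between Mrpl21 and Mrpl19. All 8 were above 1 TPM, with adjusted p of 2.63e-10 for Mrpl47 to 1.11e-07 for Mrpl19 (limma).

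Genes without opposite-strand exons reached at most 14.6 TPM. Mrpl43 led with 35, 21 and 20 counts, or 17.3, 12.6 and 13.9 TPM (14.6 ± 2.40, SD, n = 3). Mrpl54 had 23, 12 and 9 counts and 12.2 ± 3.98 TPM, and Mrpl39 had 41, 33 and 26 counts and 9.29 ± 0.551 TPM. Mrpl43, Mrpl54 and Mrpl39 are large subunit genes, and the ranges of the first 2 overlapped. Mrps16, a gene of the small subunit, had 11, 1 and 9 counts, or 11.6, 1.29 and 13.4 TPM (8.78 ± 6.55), so its mean hides a low value in replicate 3. Mrpl40 had 9.86, 3.61 and 10.4 TPM (7.96 ± 3.78), also with replicate 3 lowest, whereas Mrpl4 had 6.86, 5.86 and 9.03 TPM (7.25 ± 1.62). All 6 were above 1 TPM, with adjusted p of 2.43e-06 for Mrpl43 to 0.0161 for Mrps16 (limma). The exons of Mrpl43 and Mrpl54 ended 116 and 26 bases from the nearest opposite-strand exon, of Twnk and Apba3. Among the 52, the 20 genes within 1 kb of an opposite-strand exon had a median of 2.62 TPM (0.674 to 14.6) and the 32 beyond had 2.09 TPM (0.339 to 9.29).

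**Figure D2:**
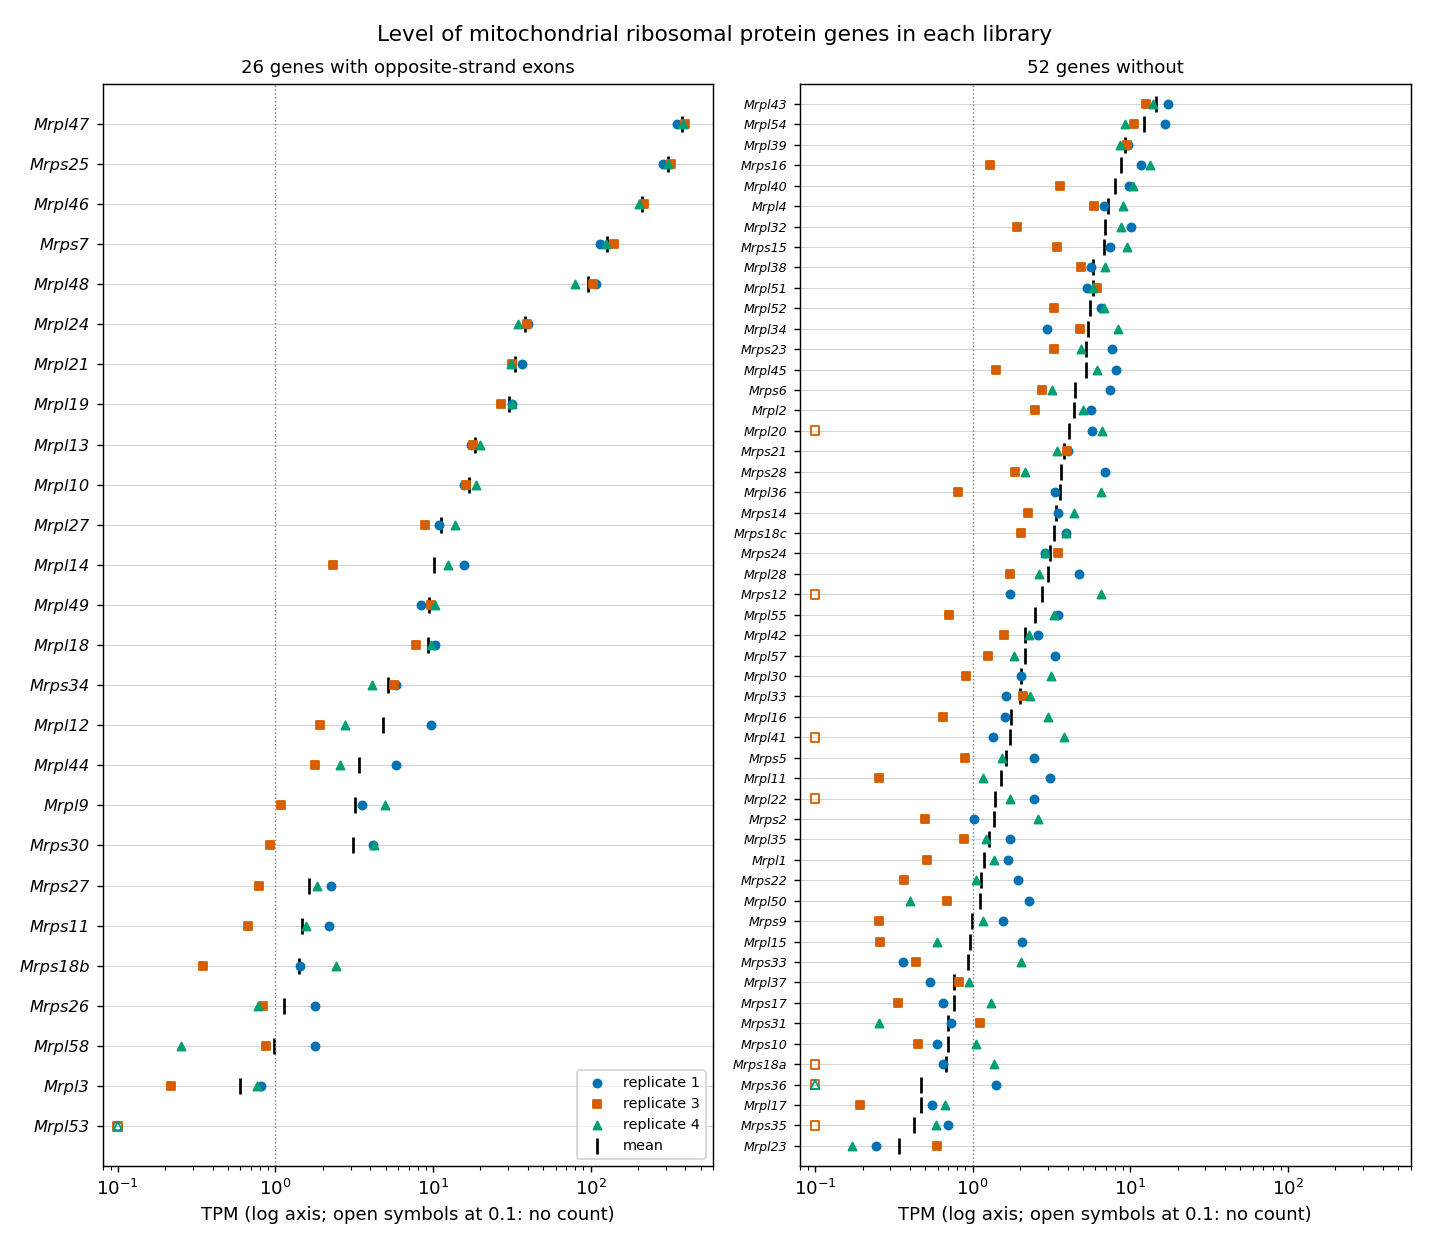
TPM (x axis, log scale) of each of the 78 genes in replicates 1, 3 and 4, with genes with opposite-strand exons on the left and genes without on the right. Open symbols at the left edge are libraries with no count, the black tick is the mean and the dotted line is 1 TPM. The 10 highest genes, from Mrpl47 at 378.5 TPM to Mrpl10 at 16.9 TPM, are all on the left, and many symbols of replicate 3 on the right lie to the left of the other 2.

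Among the genes with few counts were some at the catalytic sites of the ribosome. Mrps12, whose protein lines the decoding centre, had 3, 0 and 8 counts, and Mrpl3, whose protein lies near the peptidyl transferase centre, had 9, 2 and 6 counts. Both were undecided against 1 TPM, with adjusted p of 0.973 and 0.214 (limma). Mrps36, whose protein is now known as a subunit of the α-ketoglutarate dehydrogenase complex, had 3, 0 and 0 counts. These 3 were chosen after their values were seen. Mrpl53 was the only gene of the series with no count in replicates 1, 3 and 4. Of its 790 exonic bases, 695 also belong to Gm42688 on the same strand, and fragments in exons of both are not assigned to either unless an option is set that the file headers do not show. The counts of Mrpl33, Mrpl51, Mrpl3, Mrps6, Mrps18c, Mrps24 and Mrps34 are uncertain for the same reason, as they share 87 to 763 exonic bases with another gene on their own strand.

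Count density, the count per exonic base, was then compared within each library between the 2 genes of a pair. The 26 genes with opposite-strand exons formed 27 pairs, since Mrpl47 and Mrps7 each faced 2 genes and Mrps11 and Mrpl46 faced each other. Both genes of that last pair belong to the series. Mrps11, with the longer exonic length, was taken there as the mitochondrial ribosomal protein gene and Mrpl46 as the opposite-strand gene. Under the strand setting used, the opposite-strand gene had the higher density in 16 pairs, in 8 the mitochondrial ribosomal protein gene had, and 3 were not called (limma on log2 density with 0.5 added to each count, adjusted p under 0.05 over all pairs). The annotation held 2912 tested pairs with at least 1 protein-coding gene, those of the series included. Of these, 71.3% had the higher density in the opposite-strand gene and 20.2% in the protein-coding gene. The shares in the series were 59.3% and 29.6%. The pairs of the series were oriented by membership. In a pair of 2 protein-coding genes outside the series, the gene with the longer exonic length stood as the protein-coding gene. The 2 sets of shares are therefore not oriented alike and are given as description. Directions below are given as log2 of the opposite-strand gene over the mitochondrial ribosomal protein gene ± SE.

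The 4 genes whose shared coding bases are printed above had fewer counts than their opposite-strand genes. Mrpl12 had 25, 4 and 5 counts in replicates 1, 3 and 4, and Gm16755 had 3719, 2612 and 2440. The log2 density ratio was 9.10 ± 0.45, a 550-fold difference (adjusted p = 5.70e-05). The overlap of 200 exonic bases, of which 73 are the coding bases in capitals above, made up 13.1% of the exonic length of Mrpl12. Mrps27 had 7, 2 and 4 counts and 6430562O15Rik had 1216, 1027 and 791, a log2 ratio of 6.20 ± 0.34 (adjusted p = 7.45e-05). Here all 417 overlapping bases are coding, 22.6% of the exonic length. Mrpl9 had 16, 4 and 16 counts and Oaz3 had 1590, 1345 and 1023 (6.25 ± 0.49, adjusted p = 2.14e-04). Mrpl18 had 24, 15 and 16 counts and Tcp1 had 2243, 1701 and 1437 (4.73 ± 0.19, adjusted p = 3.80e-05). In these 4 pairs the opposite-strand gene was higher in all 3 libraries, and the counts of the 2 genes did not overlap.

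Small subunit genes showed the same direction in several pairs. Mrps18b had 5, 1 and 6 counts against 1707, 1422 and 1228 of the antisense gene Gm16279 (8.08 ± 0.50, adjusted p = 1.01e-04). Mrps26 had 13, 5 and 4 counts against 1310, 1275 and 935 of 4930473A02Rik, with which it shares 8 bases (9.02 ± 0.32, adjusted p = 3.36e-05). Mrps30, which despite its name sits in the large subunit, had 11, 2 and 8 counts against 1216, 775 and 656 of B430218F22Rik (7.18 ± 0.45, adjusted p = 1.05e-04). Replicate 3 held the fewest counts of Mrps18b and Mrps30, while their opposite-strand genes were at 1422 and 775. Mrps34 had 20, 16 and 10 counts against 3109, 2692 and 2049 of Mapk8ip3, a scaffold gene of the JNK pathway (4.58 ± 0.19, adjusted p = 4.08e-05). Of the exonic bases of Mrps34, 63.4% face Mapk8ip3.

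Among large subunit genes, Mrpl27 had 18, 12 and 16 counts against 1707, 1348 and 1078 of Eme1, the partner of the Mus81 nuclease (4.95 ± 0.23, adjusted p = 4.97e-05). Mrpl10, a stalk base protein gene, had 45, 38 and 38 counts against 1090, 973 and 800 of Gm11574 (5.39 ± 0.19, adjusted p = 3.36e-05). Mrpl24 was both well counted and lower than its neighbour, with 151, 122 and 93 counts against 2902, 2730 and 2203 of Rrnad1 (2.94 ± 0.19, adjusted p = 1.08e-04). Over the 3 libraries the log2 ratio ran from 4.54 to 5.27 at Mrpl27, from 5.23 to 5.51 at Mrpl10 and from 2.77 to 3.07 at Mrpl24. Mrpl53 had no count while Ccdc142os had 159, 106 and 112. No fold is given for this pair, although it is among the 16, because most of the exonic bases of Mrpl53 are shared with Gm42688 on its own strand and could not be counted. The other called pairs of this direction, Ict1os over Mrpl58, Gm47106 over Mrpl3 and Tmem63b over Mrpl14, had log2 ratios of 7.45 ± 0.50, 3.25 ± 0.38 and 1.77 ± 0.63 (adjusted p = 1.28e-04, 8.83e-04 and 0.0477). These pairs share 2, 24 and 106 exonic bases. Ict1os had 287, 212 and 196 counts and Mrpl58 had 10, 4 and 1. Gm47106 had 10, 4 and 5 and Mrpl3 had 9, 2 and 6. The counts of that pair were thus close, and its ratio rests on exonic lengths of 832 and 6661 bases. Tmem63b had 234, 216 and 156 counts and Mrpl14 had 25, 3 and 14. The call of Tmem63b over Mrpl14 was lost without replicate 1 (adjusted p = 0.0553), without replicate 4 (0.0808) and with replicate 2 added (0.542). It was also lost in the smaller sets of pairs with 300 or more counts (0.0514) or 100 or more shared bases (0.0507). Without replicate 3 the call held, with a smaller log2 ratio of 0.89 (adjusted p = 0.032, limma).

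Mrps11 and Mrpl46 are neighbours that start head to head on chromosome 7 and share 173 exonic bases. Mrps11, of the platform of the small subunit, had 8, 2 and 4 counts, and Mrpl46 had 501, 426 and 342. The log2 density ratio of Mrpl46 over Mrps11 was 7.13 ± 0.37, or 140.5-fold (adjusted p = 6.46e-05). Mrpl46 was higher in all 3 libraries, with no overlap of the counts.

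In 8 pairs the mitochondrial ribosomal protein gene had the higher density. Mrpl47 had 2622, 2392 and 2019 counts, whereas Ndufb5, a gene of respiratory complex I, had 11, 4 and 5 and Actl6a, a gene of chromatin remodelling complexes, had 97, 84 and 63. The log2 ratios were -8.65 ± 0.30 for Ndufb5 and -4.67 ± 0.18 for Actl6a (adjusted p = 3.36e-05 and 3.68e-05). Mrps25 had 3184, 2915 and 2422 counts, and Nr2c2, an orphan nuclear receptor gene, had 219, 188 and 191 (-5.01 ± 0.18, adjusted p = 3.45e-05). This was the longest overlap of the series, with 4590 bases or 69.8% of the exonic length of Mrps25. Mrpl48 had 1467, 1153 and 771 counts, and Rab6a, a Golgi GTPase gene, had 27, 18 and 27 (-4.38 ± 0.30, adjusted p = 1.38e-04). In each of these pairs the ordering held in all 3 libraries with no overlap of the counts.

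Mrps7 had 397, 397 and 309 counts and faced Gga3, a gene for an adaptor of vesicle transport, with 187, 108 and 101, and Mif4gd with 24, 9 and 7. The log2 ratios were -3.11 ± 0.25 and -4.88 ± 0.37 (adjusted p = 2.33e-04 and 1.85e-04). Mrpl21, with 123, 88 and 74 counts, was above the helicase gene Ighmbp2 with 22, 14 and 13 (-3.54 ± 0.25, adjusted p = 1.53e-04). Mrpl13, with 230, 196 and 188 counts, was above Mtbp with 28, 14 and 19 (-2.82 ± 0.26, adjusted p = 4.02e-04). Mif4gd, Mrpl21, Ighmbp2, Mrpl13 and Mtbp were chosen after their values were seen, as were Gga3, Mrps11, Mrpl58 and Ict1os.

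The 3 pairs that were not called were also chosen after their values were seen. Mrpl19 had 287, 203 and 205 counts and Gcfc2 had 331, 265 and 239, a log2 ratio of -0.26 with a 95% interval of -0.79 to 0.27 (adjusted p = 0.271). Mrpl49 had 24, 23 and 21 counts and Syvn1, an ubiquitin ligase gene of the endoplasmic reticulum, had 76, 72 and 60, a ratio of 0.12 with an interval of -0.57 to 0.80 (adjusted p = 0.681). Mrpl44 had 16, 4 and 5 counts and Wdfy1 had 58, 53 and 46, a ratio of 0.85 with an interval of -0.33 to 2.02 (adjusted p = 0.128), and without replicate 1 this pair was called (1.35, adjusted p = 0.0432). An adjusted p that misses the threshold does not show that the densities were equal.

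**Figure D3:**
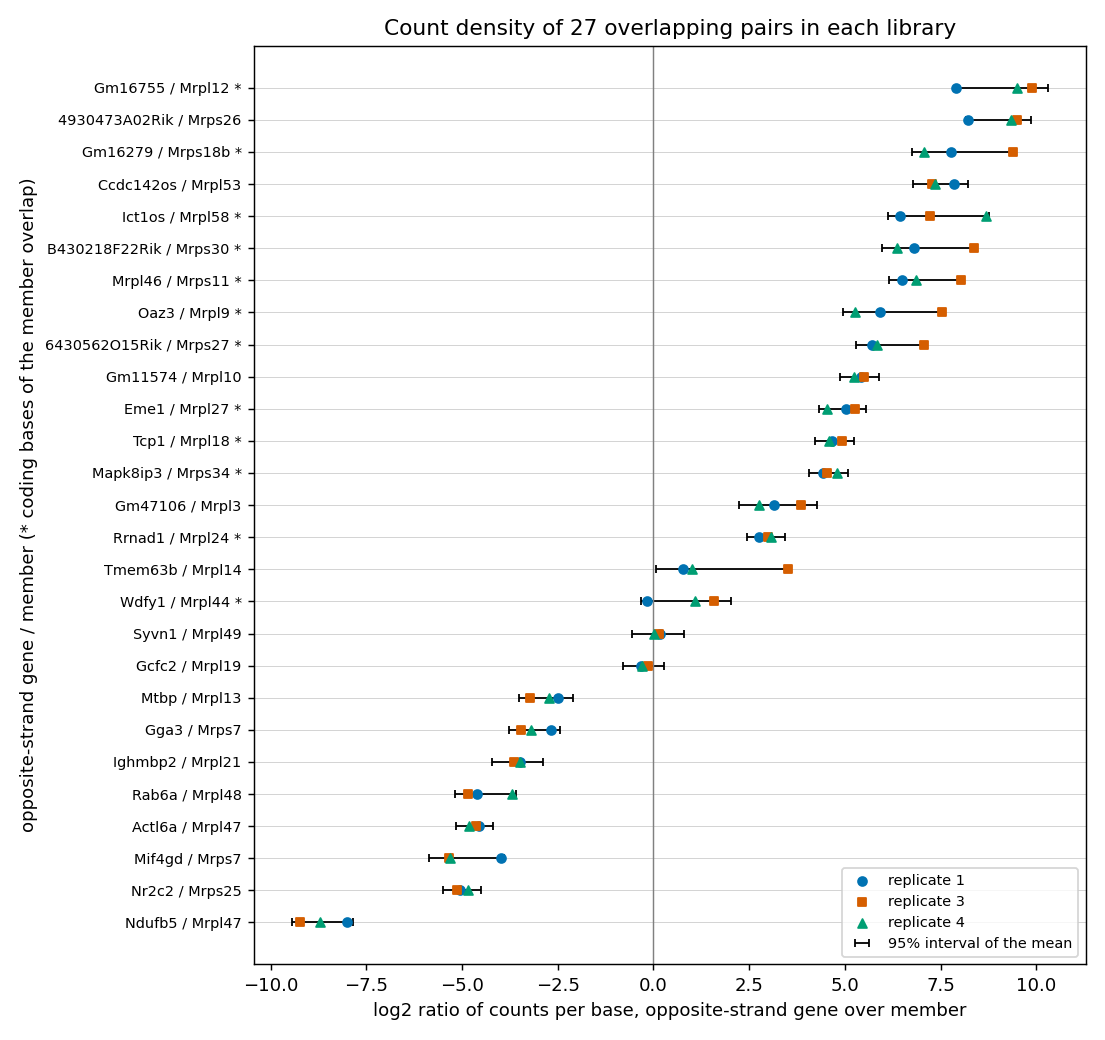
Log2 ratio of counts per base of the opposite-strand gene over the mitochondrial ribosomal protein gene (x axis) for the 27 pairs in replicates 1, 3 and 4, with the 95% interval of the mean from limma. An asterisk marks pairs in which coding bases of the mitochondrial ribosomal protein gene are shared. The 16 called pairs with the higher opposite-strand gene lie right of 0 and reach 9.10, and the 8 with the lower one lie left and reach -8.65. The position of Mrpl53, which had no count, depends on the 0.5 added to each count.

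The pairs differed by what the overlap held, a split made after the values were seen. In 12 pairs the overlap held coding bases of the mitochondrial ribosomal protein gene. Their number ran from 2 at Mrpl58, the whole overlap of that pair, and 11 at Mrpl44 to 583 at Mrps30. Of these, 11 had the higher density in the opposite-strand gene, none in the assigned mitochondrial ribosomal protein gene, and 1 was not called. Over the 1520 such pairs of the annotation the shares were 85.5% and 10.5%. Among the 11 is Mrps11 with Mrpl46, where both genes are of the series and the higher one, Mrpl46, stands as the opposite-strand gene. In the other 15 pairs, 5 had the higher density in the opposite-strand gene and 8 in the mitochondrial ribosomal protein gene, beside 55.7% and 30.7% over 1392 pairs. The median log2 ratio was 6.23 in the first set and -2.82 in the second. All 8 pairs whose opposite-strand gene is not protein-coding had the higher density in that gene, beside 85.2% of all such pairs (8.45% had the higher protein-coding gene). Among these 8 is Mrpl53, whose own count is uncertain, and Mrpl58, Mrps26 and Mrpl3 share only 2, 8 and 24 bases. The 19 pairs with a protein-coding one divided into 8 with the higher opposite-strand gene, 8 with the lower and 3 not called, beside 50.9% and 37.2%. In all shares over the annotation given here, the longer of 2 protein-coding genes outside the series stood as the protein-coding gene, as above. By arrangement, 14 head-to-head pairs divided into 8, 5 and 1, beside 69.4% and 20.8% of all such pairs. The 9 tail-to-tail pairs divided into 4, 3 and 2, beside 63.6% and 26.6%. All 4 contained pairs had the higher density in the opposite-strand gene, beside 82.2% (11.8% the other way). Several opposite-strand genes also face further genes, such as Tcp1 facing Acat3, Oaz3 facing Tdrkh, Eme1 facing Lrrc59 and Rrnad1 facing Isg20l2.

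The libraries were compared by setting each against the other 2 with edgeR over 6922 genes with a mean of 10 or more counts, 32 of them of the series. In replicate 1 none of the 32 was called, with 0 at an unadjusted p under 0.05 and 0 by DESeq2, beside 0.0289% of all genes. In replicate 4 none was called either, with 0 at an unadjusted p under 0.05 and 0 by DESeq2, beside 0.0433%. In replicate 3, 3 genes were called lower and none higher, beside 12.4% of all genes lower and 2.79% higher, so the share called lower was not above that of all genes. The median log2 change in replicate 3 was -0.16 over the 32 genes, beside -0.11 over all genes. With DESeq2 the 2 medians were -0.03 and -0.004. Scaling on genes without opposite-strand exons gave 0.54 and 0.59. The single library has no spread of its own and was taken to vary like the other 2, so the SE and p below rest on that assumption, and the test is between libraries rather than conditions.

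Mrpl45, whose protein anchors the large subunit near its exit tunnel at the inner membrane, had 35, 5 and 19 counts in replicates 1, 3 and 4. It was lower in replicate 3 by a log2 change of -2.17 ± 0.66 (adjusted p = 0.0144). Mrpl14, of the face of the large subunit toward the small one, had 25, 3 and 14 counts (-2.42 ± 0.80, adjusted p = 0.0248). Mrpl15 had 29, 3 and 6 counts (-2.23 ± 0.82, adjusted p = 0.0450), with replicate 4 also far below replicate 1. With DESeq2 none of the 3 was called and with RLE scaling 1 was. Mrps25, Mrpl47, Mrpl48 and Mrps7 had log2 changes of 0.27, 0.26, 0.30 and 0.38 in replicate 3, with adjusted p of 0.0777, 0.115, 0.116 and 0.131.

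Direction in replicate 3 went with strand class. Of the 15 tested genes without opposite-strand exons, 12 had a negative log2 change, with a median of -0.46, beside a median of -0.82 over all genes of that class. Of the 17 with opposite-strand exons 6 did, with a median of 0.12, beside 0.12 over all genes of that class. Among the genes with 10 or more counts, replicate 3 had the lowest TPM in 36 of 46 without opposite-strand exons (78.3%) and in 12 of 25 with (48.0%). The same shares over the other protein-coding genes were 76.9% and 53.8%. The T cell and Th2 markers, of which 3 of 10 have opposite-strand exons, were also lowest in summed counts in replicate 3. All 5 T cell and 4 of 5 Th2 markers had their lowest TPM there, and the exception was Il4, with 65, 80 and 59 counts (31.7, 47.6 and 40.6 TPM). The part of this in the result was not tested. When the scaling was set on genes without opposite-strand exons, the median of all genes shifted from -0.11 to 0.59. That of the 32 genes of the series shifted from -0.16 to 0.54. Directions in replicate 3 are therefore relative to the scaling.

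**Figure D4:**
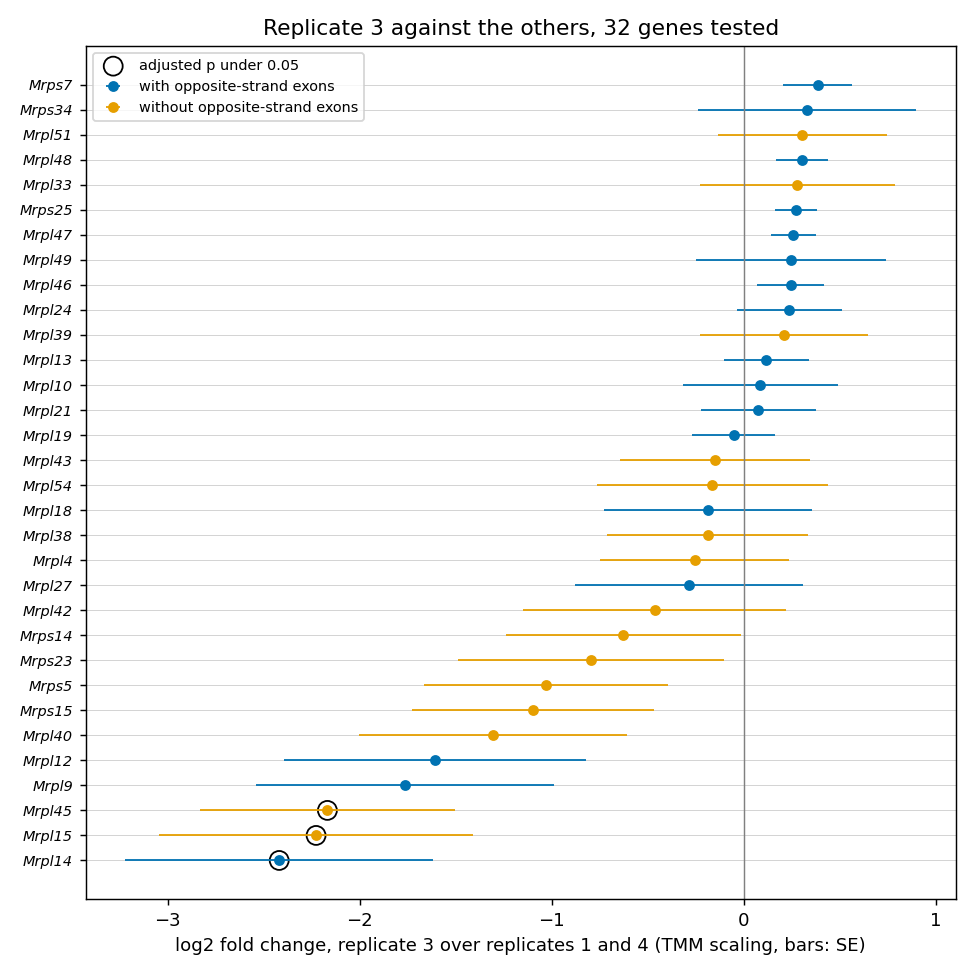
Log2 fold change of replicate 3 over replicates 1 and 4 with its SE (x axis, edgeR, TMM scaling) for the 32 genes tested, coloured by strand class, with circles around the 3 at an adjusted p under 0.05. Mrpl45, Mrpl15 and Mrpl14 lie between -2.17 and -2.42, and genes with opposite-strand exons make up most of those right of 0. With scaling on genes without opposite-strand exons the median of the 32 genes was 0.54, beside 0.59 over all genes tested.

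Other genes of mitochondrial translation were taken from 3 lists, whose counts above 1 TPM stand beside the 57.2% of all genes tested. Of 5 mitoribosomal proteins under other names, 4 were above 1 TPM and none below, led by Gadd45gip1 with 2013, 1564 and 1282 counts (458.2 ± 24.8 TPM, SD, n = 3). Chchd1 and Aurkaip1, with no opposite-strand exons, followed with 6.48 ± 4.41 and 4.50 ± 1.77 TPM. Of 12 translation factors, 8 were above, none below and 3 had too few counts. Mtif3, an initiation factor, had 3698, 2998 and 2769 counts (438.0 ± 15.4 TPM) and faces Gtf3a. Gfm2, a ribosome recycling factor, had 58.2 ± 4.96 TPM, and Guf1, an elongation factor, had 53.4 ± 1.36 TPM and faces Gnpda2. Of 21 assembly factors, 9 were above and none below, 6 had too few counts, and one of those 6, Mtg2, had no count. Malsu1, which blocks premature joining of the subunits, reached 152.9 ± 14.1 TPM opposite Igf2bp3, Mrm1, a methyltransferase of the ribosomal RNA, 36.4 ± 5.50 TPM with no opposite-strand exon, and Ddx28, a helicase, 34.3 ± 2.15 TPM opposite Dus2. Of the genes above 1 TPM in these lists, 16 of 21 had opposite-strand exons (76.2%), beside 51.0% of all protein-coding genes above 1 TPM. By class, 16 of the 18 tested genes with opposite-strand exons were above 1 TPM (88.9%, beside 66.2%) and 5 of the 11 without (45.5%, beside 38.1%).

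Promoter windows were available from RefSeq (GRCm38.p6, 250 bases before to 50 after a start) for 69 of the 78 genes. Nuclear genes of mitochondrial proteins are known to carry sites for nuclear respiratory factors and factors of the ETS family, and YY1 is a further factor of many housekeeping promoters. On either strand, GCGCANGCG for NRF1 was found in 16 of 69 (23.2%), beside 10% of 16400 other protein-coding genes and 7.03% of all 27025 genes with a window. CCGGAAG for the ETS family was found in 26 (37.7%), beside 13.3% and 9.93%. AAGATGGCG for YY1 was found in 8 (11.6%), beside 2.21% and 1.64%. At least 1 of the 3 was found in 42 of 69 (60.9%), beside 22.4% of the other protein-coding genes. By strand class, the 23 genes with opposite-strand exons and a window held the NRF1 letters in 30.4% and the ETS letters in 43.5%. The 46 without held them in 19.6% and 34.8%. The YY1 letters went the other way, with 8.7% (2 genes) and 13% (6 genes). The same split over the other protein-coding genes is not given, so these differences are not read as particular to the series. A match is a description and not a site, and motifs may overlap.

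The stretches before the start of 4 genes show such matches in capitals on the gene's own strand and hold no annotated exon. Mrpl12 and Mrps27 are genes with opposite-strand exons, and Mrpl45 and Mrpl22 are genes without. Mrpl12 carries the NRF1 letters and Mrps27 the ETS letters, both as the reverse complement, Mrpl45 carries the NRF1 letters, and Mrpl22 carries both.
Mrpl12 upstream, chr11:120484537-120484612 (+): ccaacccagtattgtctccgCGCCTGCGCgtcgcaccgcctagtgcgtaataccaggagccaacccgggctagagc
Mrps27 upstream, chr13:99344686-99344785 (+): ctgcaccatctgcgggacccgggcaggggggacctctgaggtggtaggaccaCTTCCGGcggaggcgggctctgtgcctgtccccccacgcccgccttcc
Mrpl45 upstream, chr11:97315616-97315715 (+): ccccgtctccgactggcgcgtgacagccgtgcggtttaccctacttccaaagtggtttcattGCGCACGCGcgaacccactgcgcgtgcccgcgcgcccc
Mrpl22 upstream, chr11:58171564-58171660 (+): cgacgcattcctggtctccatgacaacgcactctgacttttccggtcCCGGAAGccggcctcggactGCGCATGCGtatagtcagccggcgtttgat

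**Figure D5:**
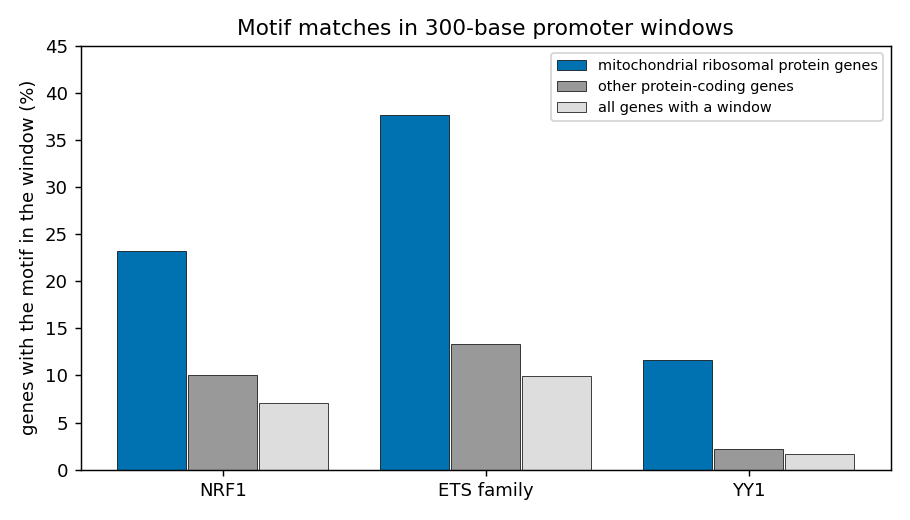
Share of genes (y axis, %) with the letters of the NRF1, ETS family and YY1 motifs in their 300-base promoter window, for the 69 mitochondrial ribosomal protein genes with a window, the 16400 other protein-coding genes and all 27025 genes. The shares are 23.2%, 37.7% and 11.6% in the first group and 10%, 13.3% and 2.21% in the second.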

How the data were processed

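The unit was the raw fragment count per gene, deposited for 4 libraries. The authors aligned reads to mm10 with STAR and counted them over GENCODE vM13 exons with featureCounts 1.4.6-p4, with both mates mapped and strand setting 1, as the file headers record. For STAR the version was not given in the sources used here. Gene names and biotypes were those of GENCODE vM21, matched on the unversioned identifier (224 of 50600 had no match).

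CPM and TPM were computed from counts and exonic lengths in Python 3.11.15 with pandas 2.3.3 and numpy 2.4.6. Exon overlaps of at least 1 base came from bedtools 2.31.1. Replicates 1, 3 and 4 entered all tests, and replicate 2, with 5016 counts, entered only as an alternative. Levels were set against 1 TPM with limma 3.58.1 in R 4.3.3 on log2(TPM + 0.1) for genes with 10 or more counts in all. Pairs with 30 or more counts together were compared in limma as log2 counts per base with 0.5 added. Each library was set against the other 2 with edgeR 4.0.16 (quasi-likelihood, TMM, mean count of 10 or more), with DESeq2 1.42.0 as alternative. Benjamini-Hochberg adjustment ran over all features at 0.05. The fits were also run on simulated counts whose spread was set beforehand and not taken from these libraries. The outcome is not given here and is not used for any result.

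The members and lists were chosen with earlier results of these data known. The rule for named genes took up to 15 called pairs by total count, the 6 highest genes of each strand class, genes apart in a library, genes with no count, the 6 opposite-strand genes with the most counts and the 3 highest of each related list. Others were chosen after their values were seen. Alternatives were other pseudocounts, filters, overlaps, scalings and tools, all 4 libraries, and leaving out each replicate.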

Additional observations from a re-analysis of the deposited data

Results flagged for a closer look

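In replicate 2, which entered the comparisons only as an alternative, 2 of the 78 genes had more than the floor of 3 counts. Mrps25 had 6 counts and Mrpl48 had 6 counts among 5016 in all. Both are among the 3 genes of the series with the most counts in the other libraries. No other gene of the series passed 3 counts there, and 7 had any count.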

How the results depend on the processing

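Leaving out replicate 1, 3 or 4 kept the count of genes above 1 TPM between 31 and 50, that of pairs with the higher opposite-strand gene between 14 and 16, and that of pairs with the higher mitochondrial ribosomal protein gene at 8. Adding replicate 2 left 8 genes above 1 TPM instead of 40, put 1 below, and lowered the median of genes with opposite-strand exons from 8.91 to 6.68 TPM. A pseudocount of 1 TPM put 2 genes below 1 TPM. For these counts against 1 TPM, shares over all genes under the same settings are not given. Requiring 100 shared bases left 10 pairs with the higher opposite-strand gene among 21 and gave a median of 14.5 TPM for the genes with opposite-strand exons. In replicate 3, where 3 genes were apart, DESeq2 gave 0, RLE scaling 1, a mean count of 1 or more gave 6 (2 higher and 4 lower), and scaling on genes without opposite-strand exons gave 9. Genes called with the last scaling were all higher and all had opposite-strand exons, whereas the 3 were lower. This scaling raised the median log2 change of all genes to 0.59, and that of the series was 0.54. With opposite-strand exons the medians were 0.82 in the series and 0.82 over all genes, and without them 0.23 and -0.12. Shares called over all genes are not given for these settings, so the changes in calls are not read as particular to the series. The causes of the other changes were not tested. Of 178 alternative values for the 27 pairs, 172 kept their side of the threshold, 5 lost a call (Tmem63b over Mrpl14) and 1 gained one (Wdfy1 over Mrpl44). Tests of a single library could not be run with a replicate left out, since 1 library would face 1. No paired analysis was possible because there is 1 group. The genes without opposite-strand exons had a median total of 21 counts, beside 46 for those with, so their values rest on few counts. The cause of this difference was not tested.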
